A study of Mus musculus with 4 samples.

Results

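The genes examined here were 48 genes of the interferon response and of MHC class I antigen presentation, out of 40092 genes in the count table of AT2 cells sorted from injured mouse lung. They were taken by symbol from a list, and all 48 symbols were found. The list holds the type I interferon receptor, the transcription factors of the pathway, the sensors of foreign RNA and DNA, the antiviral effectors, the interferon-induced GTPases, the machinery that supplies peptides to class I molecules, and the class I chains themselves. Counts were sufficient for testing in 44 of the 48, and the other 4 were Igtp, Psmb9, Tap1 and Tap2.

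AT2 cells are the surfactant-producing epithelial cells of the alveolus and can act as its stem cells. The study asked what changes in them when Alkbh5, an RNA demethylase that removes m6A marks, is deleted. Bulk RNA-seq compared 2 Ctrl libraries (Alkbh5flox/+; Sftpc-CreERT2; Rosa26-mTmG) with 2 A5-CKO libraries (Alkbh5flox/flox, with the same Cre and reporter). All mice were on a C57BL/6 background, received tamoxifen and then bleomycin, a drug that injures the lung, and were analysed on day 14. Sftpc-CreERT2 is a tamoxifen-dependent recombinase driven by the promoter of the AT2 surfactant gene Sftpc, and Rosa26-mTmG makes recombined cells green, so that the GFP+ cells were sorted. Both groups therefore carried the recombinase and a floxed allele, and the controls were heterozygous for it rather than wild type. The labels do not say whether the 2 libraries of a group came from single or pooled mice, so the spread between them may be partly technical.

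The libraries held 18144865 to 20811757 counts. Scaling used edgeR's TMM factors, and levels are given as normalised counts, meaning TMM-scaled CPM, always in the order Ctrl 1, Ctrl 2, A5-CKO 1 and A5-CKO 2. A count of 3 was taken as the floor of detection and equals 0.128 to 0.177 CPM, which covers counting error only. Alkbh5 itself had 81.7 and 152 CPM in Ctrl and 19.3 and 36.6 CPM in A5-CKO, which is -2.06 on the log2 scale with a standard error of 0.46. After Benjamini-Hochberg adjustment its p was 0.528 by the quasi-likelihood test of edgeR and 0.0224 by DESeq2. The AT2 markers summed to 48300, 70200, 36390 and 29550 CPM, and 5 of the 8 genes, among them Sftpc with 15480, 16370, 10270 and 7856 CPM, were below both controls in both A5-CKO libraries. Of all genes tested, 23.5% were below in the same way, and the groups overlapped in the AT2 markers Abca3, Lamp3 and Etv5. Markers of macrophages and monocytes summed to 2648, 545, 363 and 1999 CPM, with 9 of 9 genes detected, and markers of B and plasma cells to 2138, 357, 502 and 2294 CPM, with 6 of 6 detected. Both sums were high in Ctrl 1 and A5-CKO 2, where most of each came from Chil3 or from Igkc and Jchain. Cd68 (157, 54.6, 34.1 and 153.5 CPM), Adgre1, Marco, Mrc1, Csf1r and Itgam were also higher in those libraries than in the others. So was Mzb1 of the B and plasma cell markers, with 23.4, 4.19, 4.48 and 17.9 CPM. The remaining genes of both lists did not share this pattern. The leukocyte gene Ptprc had 50.9, 22.5, 84.3 and 82.8 CPM and the monocyte gene Ly6c2 had 88.5, 71.3, 38.3 and 61.9 CPM. The B cell gene Cd79a had 16.7, 12.4, 9.64 and 10.04 CPM, and Ighm had 31.4, 12.3, 4.71 and 7.95 CPM. Immune cells express many interferon-induced and class I genes. In bulk libraries, fewer cells of a type and less RNA per cell cannot be told apart.

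Type I interferons bind a receptor made of Ifnar1 and Ifnar2, whose kinases activate a complex of STAT proteins and Irf9. This complex enters the nucleus and binds a short element, the interferon-stimulated response element (ISRE), in front of its target genes. The products of these genes block viral RNA, tag proteins with Isg15, and destroy or expose intracellular pathogens. The same signals, together with the class I transactivator Nlrc5, raise the genes that cut proteins into peptides, carry the peptides into the endoplasmic reticulum and present them on MHC class I molecules at the cell surface.

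The ISRE was looked for in the promoters of the list, since its presence was not used to choose the genes. RefSeq windows on GRCm38.p6 of 300 bases, from 250 before to 50 after the start site, were found for 37 of the 48 genes and for 27025 genes in all. The ISRE core, written GAAANNGAAA on one strand and TTTCNNTTTC on the other, lay in the windows of 17 of the 37 (45.9%) and of 1079 of all genes (3.99%). The site bound by STAT dimers (GAS, TTCNNNGAA, the same on both strands) lay in 10 of the 37 (27.0%) and in 9.55% of all genes. A window with 2 or more overlapping cores counted once, and a match is a description of letters, not of binding. Core matches were in 5 of 5 windows of interferon-induced GTPases and 3 of 4 of IFIT proteins, but in 0 of 4 of peptide supply. The 160 bases before the start site are shown for 7 of the 17 genes with a core, read 5′ to 3′ along the gene, with the core in capitals. They are Isg15 (chr4:156200819-156200978, minus strand), Ifit1 (chr19:34640729-34640888, plus), Ifit3 (chr19:34583369-34583528, plus), Rsad2 (chr12:26456453-26456612, minus), Irgm1 (chr11:48871421-48871580, minus), Gbp2 (chr3:142620503-142620662, plus) and B2m (chr2:122147527-122147686, plus).
Isg15: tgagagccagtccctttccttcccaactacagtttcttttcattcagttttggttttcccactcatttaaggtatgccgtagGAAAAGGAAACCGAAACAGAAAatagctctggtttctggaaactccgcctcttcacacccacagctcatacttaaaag
Ifit1: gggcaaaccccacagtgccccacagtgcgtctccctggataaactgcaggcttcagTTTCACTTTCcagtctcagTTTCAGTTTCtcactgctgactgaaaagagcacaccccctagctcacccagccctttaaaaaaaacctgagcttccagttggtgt
Ifit3: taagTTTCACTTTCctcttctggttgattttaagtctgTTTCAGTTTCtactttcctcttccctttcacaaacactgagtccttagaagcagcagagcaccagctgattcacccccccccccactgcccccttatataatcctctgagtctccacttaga
Rsad2: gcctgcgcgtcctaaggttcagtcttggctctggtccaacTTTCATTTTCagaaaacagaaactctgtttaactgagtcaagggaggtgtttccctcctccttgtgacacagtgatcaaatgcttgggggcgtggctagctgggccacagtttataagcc
Irgm1: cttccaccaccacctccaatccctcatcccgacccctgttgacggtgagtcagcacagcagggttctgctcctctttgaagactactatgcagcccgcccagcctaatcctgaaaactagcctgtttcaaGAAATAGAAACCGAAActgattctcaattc
Gbp2: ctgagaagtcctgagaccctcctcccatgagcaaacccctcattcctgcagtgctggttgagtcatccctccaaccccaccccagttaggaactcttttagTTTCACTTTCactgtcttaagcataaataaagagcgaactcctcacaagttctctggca
B2m: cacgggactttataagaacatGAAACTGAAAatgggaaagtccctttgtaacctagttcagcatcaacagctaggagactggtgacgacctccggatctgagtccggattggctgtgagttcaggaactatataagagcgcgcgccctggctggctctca
In Isg15, 3 overlapping cores formed one run starting 78 bases before the start site. Ifit1 and Ifit3 each held 2 separate cores, Irgm1 held 2 overlapping cores ending just before its start, and Rsad2, Gbp2 and B2m held 1 each. The Ifit3 window lies before a start site within the annotated gene, which begins at position 34583119.

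No gene of the list was called between the genotypes. By the quasi-likelihood test of edgeR, adjusted by Benjamini-Hochberg over 16661 genes, 0 of the 44 passed an adjusted p of 0.05, as did 0% of all genes tested. At an unadjusted p under 0.05 in the same fit, 0 of the 44 were higher and 0 lower in A5-CKO, against 4.48% and 4.71% of all genes. In DESeq2 with its default filtering, 0.385% of genes were called and 0 of the list, with a smallest adjusted p of 0.425 (Ifit2), while 3 were higher and 2 lower at an unadjusted p under 0.05, against 3.82% and 2.93% of the 27072 genes fitted. In limma voom 2 were higher and 0 lower at that threshold, against 3.98% and 4.69% of all genes. The median log2 fold change of the 44 was -0.25, beside -0.02 for all genes tested, with 16 above 0 and 28 below. Both A5-CKO libraries lay above both Ctrl libraries in 7 genes (Stat2, Nlrc5, Ifih1, Ifit2, Oas2, Mx1 and Gbp7), or 7 of 44, where 20.3% of all genes did so. They lay below both in 8 genes (Ifnar2, Irf3, Irf9, Oas3, Oasl2, Dtx3l, H2-K1 and H2-D1), where 23.5% of all genes did. In the remaining 29 genes the groups overlapped. With total counts in place of TMM factors, the median of all genes moved from -0.02 to 0.30 and that of the list to 0.04, so that directions here are relative to the TMM scale. The smallest two-sided p that a permutation of 2 against 2 libraries can give is 0.333.

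**Figure D1:**
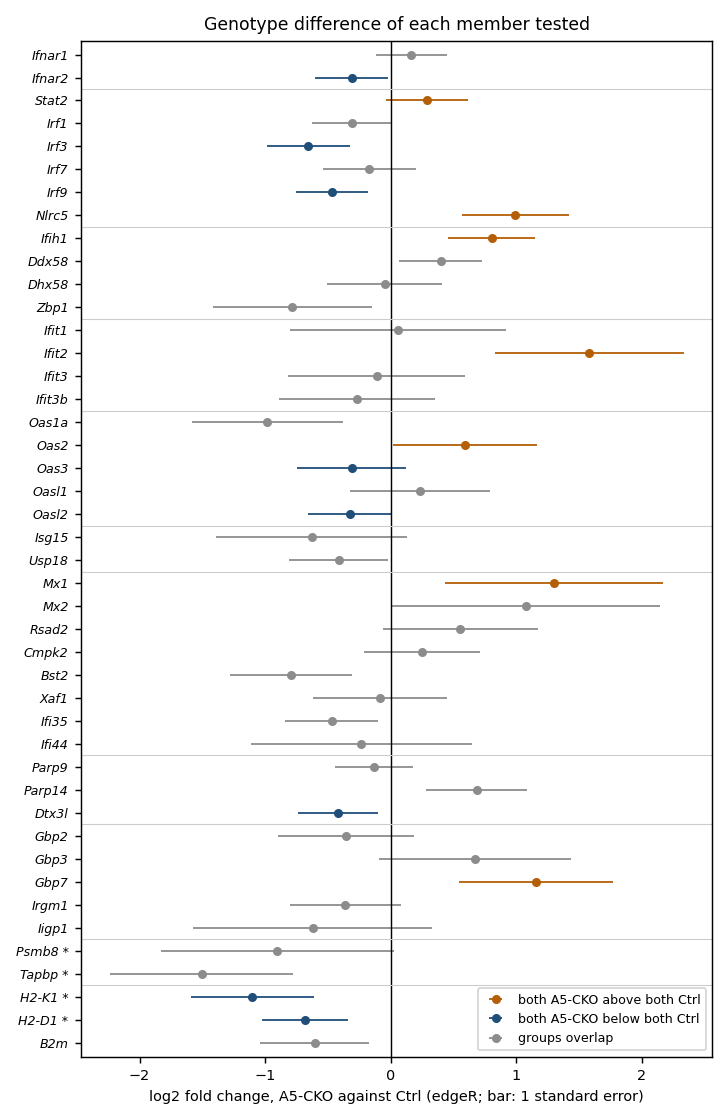
Log2 fold change (x axis, A5-CKO against Ctrl, edgeR fit on TMM-scaled counts) of the 44 genes tested, grouped by role, with bars of 1 standard error. Orange genes had both A5-CKO libraries above both Ctrl libraries (7), blue genes below (8), grey genes overlapped (29), and an asterisk marks genes of the sparse stretch of chromosome 17.

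The 2 control libraries differed from each other across most of the list. Ctrl 1 was above Ctrl 2 in 40 of the 44 genes (90.9%), beside 50.5% of all genes tested. The median difference of Ctrl 1 minus Ctrl 2 was 0.71 on the log2(CPM + 0.5) scale in the list and 0.01 in all genes. It exceeded 1 in 19 of the 44 (43.2%), beside 8.62% of all genes, and was below -1 in 0. Between the 2 A5-CKO libraries the median difference was 0.15, beside 0.05 in all genes, and 0 of the 44 differed by more than 1 in either direction, beside 8.03% of all genes above 1 and 8.45% below -1. Ctrl 1 was the highest library in 29 of the 44 genes, Ctrl 2 the lowest in 24, and both A5-CKO libraries lay between the 2 Ctrl libraries in 13. Among all 16661 genes tested, the same counts were 3935, 4316 and 2359. These are descriptions of single libraries and carry no test. The 4 genes with Ctrl 1 below Ctrl 2 were Oas2, Oas3, Ifnar1 and Ddx58. By role, the median difference between the controls was 1.76 in the IFIT proteins, 1.63 in the 2 peptide supply genes tested, 1.53 in the GTPases, 1.46 in the ISG15 system and 1.40 in the other antiviral effectors. It was 0.94 in the class I chains, 0.48 in the sensors, 0.43 in the OAS family, 0.29 in Parp9, Parp14 and Dtx3l, 0.17 in the transcription factors and -0.06 in the receptors, and the roles were not tested against each other. The peptide supply genes tested (Psmb8 and Tapbp), H2-K1 and H2-D1 lie in a sparse stretch of chromosome 17. Counts there, as described below, cannot be read as levels of expression. Outside the stretch, Ctrl 1 was above Ctrl 2 in 36 of 40 genes tested, with a median difference of 0.67. The genes of the stretch that were tested all count among those without an ISRE core. Genes with an ISRE core in the window differed by a median of 1.33 between the controls (16 genes tested, from -0.37 to 2.48), and genes without one by 0.43 (18 genes, from -0.20 to 2.06). All 9 macrophage and monocyte markers and all 6 B and plasma cell markers were also higher in Ctrl 1 than in Ctrl 2. So were the mesenchymal markers Col1a1, Col1a2 and Dcn, but not Pdgfra, and their sum was 285, 98.4, 58.0 and 754 CPM. The AT2 and endothelial sums were lower in Ctrl 1, at 48300 against 70200 and 124.6 against 200.3 CPM. The sums of AT1, T and NK, plasmacytoid dendritic, and club and ciliated markers were higher in Ctrl 1. The part of all these cells in the result was not tested.

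**Figure D2:**
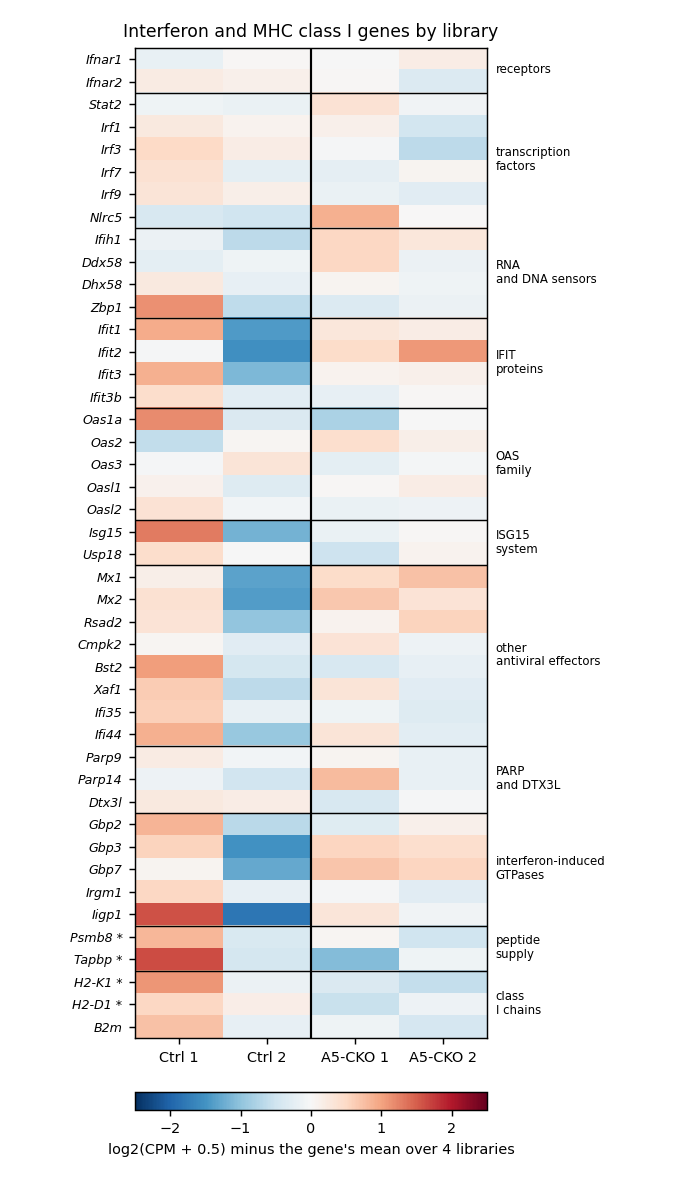
Each row is 1 of the 44 genes tested and each column a library, coloured by log2(CPM + 0.5) minus the mean of the 4 libraries for that gene (red above, blue below), with role groups separated by lines and genes of the sparse chromosome 17 stretch marked by an asterisk. The first column is mostly red and the second mostly blue, with Ctrl 1 above Ctrl 2 in 40 of the 44.

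**Figure D3:**
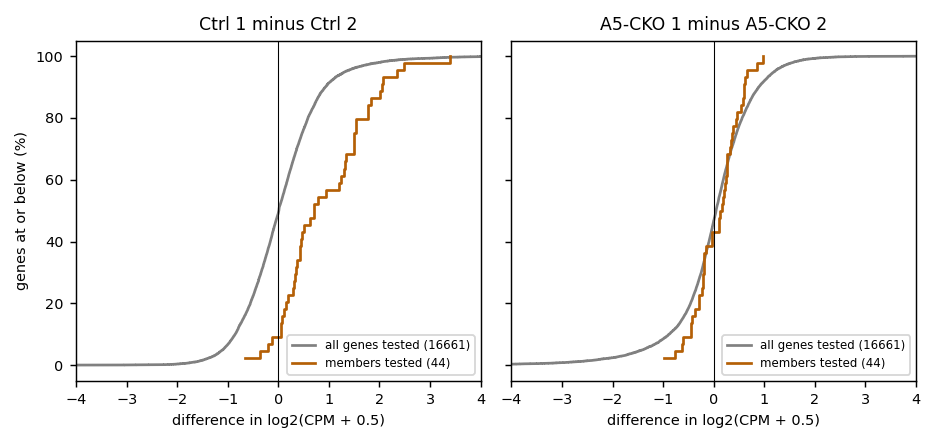
Cumulative share of genes (y axis, %) by the difference in log2(CPM + 0.5) between the 2 libraries of a genotype (x axis), for the 44 listed genes (orange) and all 16661 genes tested (grey). The list is shifted to the right between the Ctrl libraries, with a median of 0.71 against 0.01, while between the A5-CKO libraries the medians are 0.15 and 0.05 and the list is narrower, with 0% of it beyond 1 in either direction beside 8.03% and 8.45% of all genes.

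The direction of the list followed the control that was kept. Without Ctrl 1, the median log2 fold change was 0.31 with 33 of 45 genes above 0, and 7 genes were higher and 0 lower at an unadjusted p under 0.05 in edgeR, beside 5.24% and 4% of all genes in the same fit. Without Ctrl 2, the median was -0.53 with 34 of 46 genes below 0, and 0 genes were higher and 9 lower, beside 2.15% and 5.61%. The medians of all genes in these fits were 0.11 and 0.06. Isg15, the ubiquitin-like protein that is attached to other proteins in infected cells (chromosome 4, 156199424 to 156200818, GRCm38.p6), had 30.5, 5.06, 10.7 and 12.3 CPM. Its 2 A5-CKO values were close to each other and lay between the controls. Its log2 fold change was -0.63 (standard error 0.76), but 1.24 without Ctrl 1 and -1.45 without Ctrl 2. Iigp1, a GTPase that attacks the vacuoles of parasites, had the widest control difference of the 44 on the log2(CPM + 0.5) scale, with 33.9, 2.79, 13.6 and 10.3 CPM. Iigp1 and the IFIT genes were singled out after their values were seen.

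The receptor genes spanned 57.2 to 88.3 CPM over the 4 libraries. Ifnar1 had 57.2, 66.0, 64.5 and 73.6 CPM and a log2 fold change of 0.16 (standard error 0.28). Ifnar2 had 88.3, 83.8, 78.1 and 60.4 CPM and a log2 fold change of -0.31 (standard error 0.29). Both A5-CKO values of Ifnar2 were below both Ctrl values, and its unadjusted p in edgeR was 0.316. Part of its exons, 9.5%, overlaps another annotated gene.

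Of the 6 transcription factors none passed the adjusted threshold. Both A5-CKO libraries lay above both controls in Nlrc5 and Stat2, below them in Irf3 and Irf9, and overlapped with them in Irf1 and Irf7. Nlrc5, which switches on class I genes (chromosome 8, 94434335 to 94527272), had 13.1, 12.1, 32.5 and 17.6 CPM, so that the 2 controls were alike and the first A5-CKO library stood well above the other. Its log2 fold change of 0.99 (standard error 0.43) came with an adjusted p of 0.528 and an unadjusted p of 0.0540 in edgeR. DESeq2 gave an unadjusted p of 0.0327. Nlrc5 stayed above 0 when each library was left out, with 0.47 when A5-CKO 1 was left out and 1.33 when A5-CKO 2 was. Irf3, which is activated by the sensors of viral nucleic acid, had 96.9, 78.4, 67.4 and 43.7 CPM (log2 fold change -0.66, standard error 0.33). Irf9, the DNA-binding partner of the STAT complex, had 65.4, 57.3, 46.1 and 42.6 CPM (-0.47, standard error 0.28). Irf1, the factor of this group with the highest level, had 117, 105, 107 and 71.6 CPM, and only A5-CKO 2 stood apart. Stat2 had values from 30.5 to 43.7 CPM and Irf7, which amplifies interferon production, from 22.6 to 35.4 CPM, with log2 fold changes of 0.29 and -0.17.

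Of the 4 sensors none passed the adjusted threshold, and only in Ifih1 did the groups not overlap. Ifih1, the sensor MDA5 of long double-stranded RNA (chromosome 2, 62595618 to 62646255), had 26.7, 18.7, 42.9 and 36.4 CPM, with no overlap between the groups. The log2 fold change was 0.80 (standard error 0.35), with an adjusted p of 0.528 and an unadjusted p of 0.0538 in edgeR. DESeq2 gave an unadjusted p of 0.0483, and the log2 fold change ranged from 0.53 to 1.14 when each library was left out. With an adjustment for GC content and transcript length it was 0.35. Ddx58, the sensor RIG-I, had 47.7, 52.1, 80.8 and 50.7 CPM, so that A5-CKO 1 stood apart from the other three, and its log2 fold change of 0.40 (standard error 0.33) was 0.01 without that library. Dhx58, a regulator of these sensors, lay between 7.39 and 10.4 CPM in the 4 libraries. Zbp1, a sensor of left-handed nucleic acid that can trigger cell death, had 23.4, 6.46, 8.06 and 9.23 CPM, with Ctrl 1 above the other three.

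The IFIT proteins, which bind viral RNA that lacks the host cap, showed the widest role-wide spread between controls. Ifit1 had 7.98, 1.16, 4.94 and 4.57 CPM, and Ifit3 had 15.1, 3.37, 8.47 and 8.63 CPM. In both, the A5-CKO libraries were nearly equal and lay between the controls, with log2 fold changes of 0.06 (standard error 0.86) and -0.11 (standard error 0.71). Ifit3 turned to 1.40 without Ctrl 1 and was -0.87 without Ctrl 2. Ifit2 (chromosome 19, 34550550 to 34576534) was the one IFIT gene with no overlap between groups, at 3.55, 0.931, 5.16 and 8.25 CPM from 60, 16, 114 and 193 counts. Its log2 fold change of 1.58 (standard error 0.75) was the largest above 0 in the list, with an adjusted p of 0.533 in edgeR and an unadjusted p of 0.0320 in DESeq2, and it ranged from 0.88 without Ctrl 2 to 2.91 without Ctrl 1. Ifit3b stayed between 2.09 and 3.73 CPM. Of the 75-base windows of the Ifit3 transcript, 41.1% also occur in Ifit3b, and 35.7% of those of Ifit3b in Ifit3, so the split of reads between them is uncertain.

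The OAS family consists of proteins that bind double-stranded RNA, several of which are enzymes. Oas1a had 31.6, 10.5, 7.74 and 13.6 CPM, with Ctrl 1 above the other three and a log2 fold change of -0.99 (standard error 0.60) that was 0.08 without Ctrl 1. Of its 75-base windows, 47.6% also occur in Oas1g, so its level is uncertain. Oasl2 had 38.0, 28.1, 26.1 and 26.7 CPM, and its values other than Ctrl 1 were nearly equal. Oas2 (2.42 to 5.43 CPM) was above both controls in both A5-CKO libraries and Oas3 (8.42 to 12.8 CPM) below, with log2 fold changes of 0.59 and -0.31, while Oasl1 (2.73 to 4.10 CPM) overlapped.

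Of the ISG15 system, Usp18, the protease that removes Isg15 and restrains the receptor, had 28.2, 20.5, 14.4 and 22.1 CPM. Its log2 fold change was -0.42 (standard error 0.40), and A5-CKO 2 lay among the controls.

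The other antiviral effectors included the second most abundant gene of the list. Bst2, which tethers budding virus to the cell surface (chromosome 8, 71534255 to 71537472), had 143.5, 50.7, 51.9 and 60.2 CPM. Ctrl 1 stood alone, and the log2 fold change of -0.79 (standard error 0.49) was 0.21 without it. Mx1, a GTPase that traps viral capsids, had 1.89, 0.349, 2.45 and 3.08 CPM from 32, 6, 54 and 72 counts, with a log2 fold change of 1.30 (standard error 0.87) that was 3.02 without Ctrl 1 and 0.50 without Ctrl 2. Mx2 had only 2 counts in Ctrl 2, below the floor, and 27, 46 and 36 in the others. Rsad2 (viperin) ranged from 2.91 to 9.32 CPM, Cmpk2 from 7.27 to 11.5, Xaf1 from 9.31 to 23.5, Ifi35 from 29.5 to 56.3 and Ifi44 from 0.698 to 3.78 CPM. In 7 of the 8 effectors Ctrl 2 was the lowest library, and in all 8 Ctrl 1 was above Ctrl 2.

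Parp14, which attaches ADP-ribose to proteins and is part of this response, had 40.6, 31.7, 77.1 and 38.9 CPM. A5-CKO 1 stood alone, and its log2 fold change of 0.68 (standard error 0.40) was 0.10 without that library. Parp9 and Dtx3l, which act as a complex and lie head to head on the chromosome, ranged from 36.0 to 47.8 and from 24.9 to 38.9 CPM. Their exons overlap by 9.4% and 8.0%, and no strand setting is named for the counting, so reads of the overlap cannot be told apart.

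Among the interferon-induced GTPases, Gbp2 had 41.5, 14.1, 18.3 and 25.1 CPM, with the A5-CKO libraries between the controls. Gbp7 (chromosome 3, 142530336 to 142550151) had 6.68, 2.33, 10.6 and 9.45 CPM, with no overlap between the groups, and differed by 1.16 on the log2 scale (standard error 0.61, edgeR adjusted p = 0.554), which ranged from 0.54 without Ctrl 2 to 2.16 without Ctrl 1. Of its 75-base windows, 11.4% occur in other transcripts. Gbp3 had 8.40, 1.63, 8.38 and 7.61 CPM, where Ctrl 2 alone was low. Irgm1 ranged from 10.4 to 18.4 CPM. Igtp had 0, 2, 0 and 2 counts, at or below the floor in every library, and no fold is given.

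**Figure D4:**
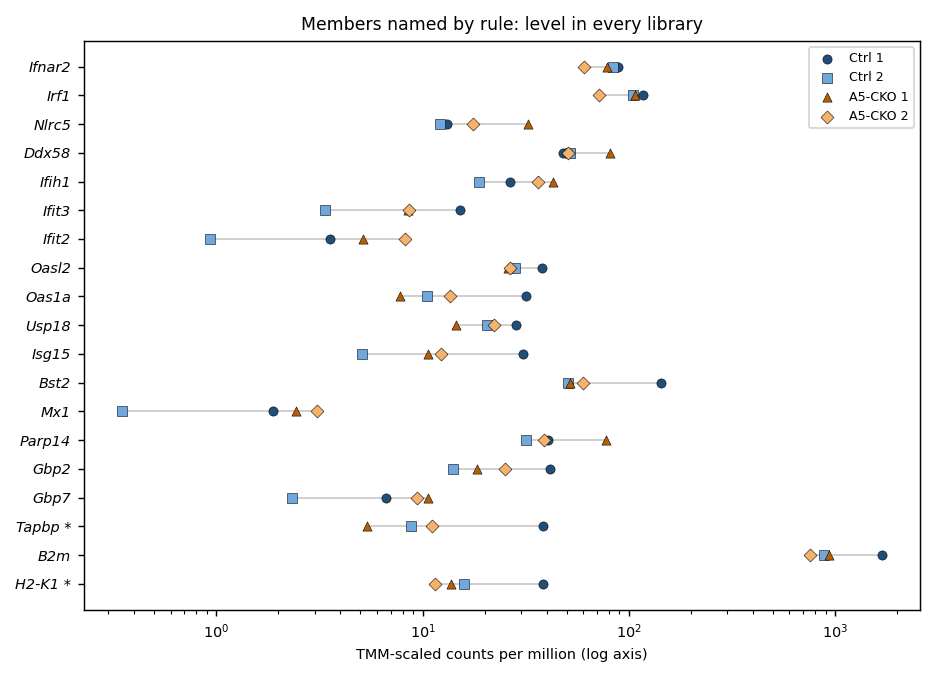
CPM (x axis, log scale) in each of the 4 libraries for the 19 genes named by rule, which are, in each role group, those with the highest mean CPM, the largest fold change and the smallest p. Blue symbols are Ctrl and orange symbols A5-CKO, a grey line spans the 4 libraries, and Ctrl 2 (square) is the lowest point for Nlrc5, Ifih1, Ifit3, Ifit2, Isg15, Bst2, Mx1, Parp14, Gbp2 and Gbp7.

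Class I molecules consist of a heavy chain, such as H2-K1 or H2-D1, and B2m. B2m (chromosome 2, 122147687 to 122153082) was by far the most abundant gene of the list, at 1240 CPM per kilobase of transcript over the 4 libraries, followed by Bst2 at 96.7, Irf1 at 46.8 and Irf3 at 35.3. It had 1693, 879.5, 938 and 754 CPM. Only Ctrl 1 stood apart, and Ctrl 2 lay between the A5-CKO libraries. The log2 fold change of B2m was -0.60 (standard error 0.43), with an adjusted p of 0.635 in edgeR, and it was -4e-04 without Ctrl 1 and -1.05 without Ctrl 2. The sums of macrophage and monocyte, of B and plasma cell, and of mesenchymal markers were high in Ctrl 1 and in A5-CKO 2, which had the lowest B2m. Of the B and plasma cell markers, Igkc, Jchain and Mzb1 were high in the same libraries, and Ms4a1 overlapped between the groups. Cd79a and Ighm were below both controls in both A5-CKO libraries, as were 5 of the 8 AT2 markers, beside 23.5% of all genes tested. The part of these cells in the result was not tested.

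The heavy chains and the peptide supply genes lie in a stretch of chromosome 17 in which the table holds few counts. From Angptl4 to Mucl3 (chromosome 17, 33774900 to 35643695, GRCm38.p6), 94 of 115 protein-coding genes averaged under 1 CPM, and 51 had 0 counts in all 4 libraries. Of the 20 such genes just before it, 7 were under 1 CPM, and of the 20 just after it, 1. Over windows of 115 genes, however, 44 before it (38.3%) and 88 after it (76.5%) were under 1 CPM, beside 81.7% in the stretch and 39.9% of all protein-coding genes, so that a share of this size also occurs next to it. The stretch includes genes that every cell uses. The ribosomal protein genes Rps28 and Rps18 averaged 0.142 and 3.50 CPM, whereas the median of 78 ribosomal protein genes elsewhere was 397 CPM. Of those 78, 5 were as low as Rps18, namely Rps10 and the like-named genes Rpl32l, Rpl10l, Rpl39l and Rpl3l. The borders were chosen after the values were seen. The stretch holds 7 listed genes, namely Tapbp, H2-K1, Psmb9, Tap1, Psmb8, Tap2 and H2-D1, and their counts cannot be read as levels of expression. Why the stretch is sparse was not tested. Of the 75-base windows of the 7 listed genes, 0% (Psmb9 and Tap1), 1.33% (H2-K1), 2.73% (Psmb8), 7.1% (H2-D1), 8.97% (Tap2) and 17.5% (Tapbp) also occurred in another annotated transcript, and the other genes of the stretch were not examined. No second row carries the symbol of any of these genes.

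**Figure D5:**
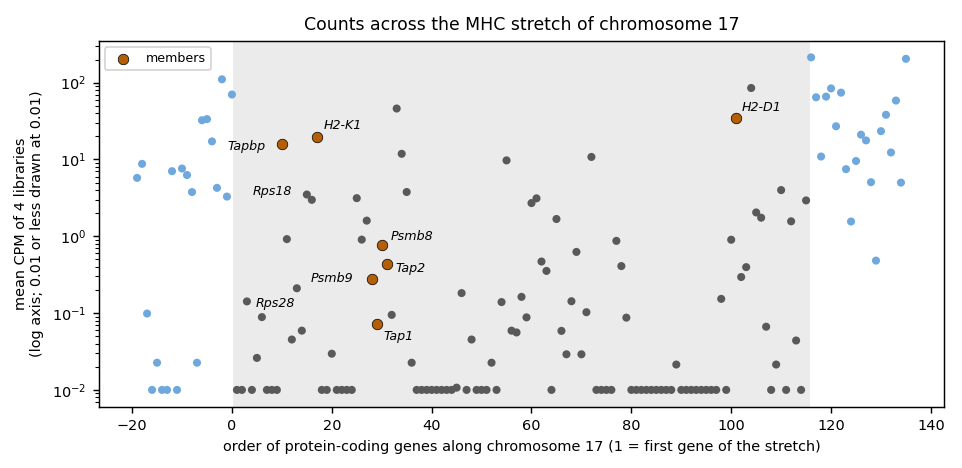
Mean CPM of the 4 libraries (y axis, log scale, with values of 0.01 or less drawn at 0.01) for protein-coding genes in their order along chromosome 17 (x axis, 1 is the first gene of the stretch). In the shaded stretch 94 of 115 genes are under 1 CPM, among them Psmb8, Psmb9, Tap1 and Tap2 (orange), as are 7 of the 20 genes just before it, 1 of the 20 just after it and 88 of the 115 that follow it.

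Within the stretch, the counts of the listed genes were as follows. Psmb8 and Psmb9, catalytic subunits of the immunoproteasome that cuts peptides for class I, had 27, 7, 16 and 8 counts and 6, 4, 10 and 2 counts. Tap1 and Tap2, the transporter that carries peptides into the endoplasmic reticulum, had 2, 0, 0 and 4 counts and 18, 6, 3 and 4 counts. Tapbp, which holds empty class I molecules at the transporter (chromosome 17, 33919478 to 33929290), had 38.1, 8.79, 5.39 and 11.1 CPM. The log2 fold change of Tapbp was -1.51 (standard error 0.73, edgeR adjusted p = 0.535), and -0.02 without Ctrl 1. Of its windows, 17.5% occur in other transcripts, and 29.0% of its exon bases overlap another gene. H2-K1 (chromosome 17, 33996012 to 34000619) had 38.3, 15.9, 13.7 and 11.5 CPM, below both controls in both A5-CKO libraries. It differed by -1.10 on the log2 scale (standard error 0.49, edgeR adjusted p = 0.528), and by -0.28 without Ctrl 1. H2-D1 had 47.8, 37.1, 22.5 and 30.4 CPM and a log2 fold change of -0.68 (standard error 0.34). Without the 7 genes of the stretch, the median log2 fold change of the other 40 tested was -0.15, with 7 genes separated upward and 6 downward.

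Genes of the pathway outside the list were read from 68 further genes, of which 57 could be tested. Their median log2 fold change was -0.03, with 26 above 0 and 31 below, and 3 were higher and 2 lower at an unadjusted p under 0.05 in edgeR, with adjusted p of 0.528 for each and beside 4.48% and 4.71% of all genes. Those higher included Tbk1, the kinase that activates Irf3 (36.1, 35.6, 65.1 and 54.1 CPM, log2 fold change 0.73), and Eif2ak2, the RNA-activated kinase PKR (34.1, 22.2, 69.2 and 40.6 CPM, 0.96). Those lower were Ifi27l2a (85.3, 34.1, 21.6 and 24.9 CPM, -1.36) and the class I gene H2-Q7 (97, 17, 3 and 3 counts), which lies in the sparse stretch and has near-identical relatives. Over all 57, both A5-CKO libraries were above both controls in 9 genes and below in 16, beside 20.3% and 23.5% of all genes tested. Among adaptors and kinases of RNA and DNA sensing, they were above in 4 of 8 (Tbk1, Ikbke, Tlr3 and Traf3) and below in 1 (Mavs), with a median log2 fold change of 0.61. The counts above and below were 2 and 3 of 9 kinases, STATs and receptors. They were 0 and 0 of 5 genes that restrain the pathway, and 3 and 5 of 22 other effectors.

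Antigen presentation genes outside the list gave 13 tested genes with a median log2 fold change of -0.27, and 7 of the 13 were below both controls in both A5-CKO libraries, beside 23.5% of all genes. H2-Q4, H2-Q6 and H2-Q7 among the 13 lie in the sparse stretch, where counts cannot be read as levels of expression. H2-Q7 is among the 7. Psmb10, the immunoproteasome subunit encoded outside chromosome 17, had 71.2, 42.0, 34.8 and 33.2 CPM (log2 fold change -0.73, standard error 0.35). Psme1 and Psme2, which open the proteasome, had 389.6, 348, 256 and 206 CPM and 192.5, 107.9, 103 and 82.3 CPM, with log2 fold changes of -0.68 and -0.70. Their A5-CKO values lay below both controls in each case, and none passed the adjusted threshold. The AT2 markers Sftpb and Napsa were also below both controls there, with log2 fold changes of -1.12 and -1.13, and the part of this in the result was not tested. The loading chaperones Calr and Pdia3, partners of Tapbp, had log2 fold changes of -0.27 and -0.01. H2-T23, a non-classical class I gene just beyond the stretch, had 278, 218, 191 and 132 CPM.

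The receptor-bound kinases Jak1 and Tyk2 had log2 fold changes of 0.05 and -0.18. None of the interferon genes read here was detected above the floor in all libraries, and other members of the family were not looked up. Ifna1, Ifna2, Ifna4, Ifne, Ifnl2 and Ifnl3 had 0 counts in every library, which allows up to 0.128 to 0.177 CPM, and Ifnb1 had 0, 0, 0 and 3 counts. Ifng, which lymphocytes make, had 5, 2, 28 and 0 counts, highest in A5-CKO 1. Markers of T and NK cells summed to 41.9, 37.0, 43.3 and 17.7 CPM in the same order.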

How the data were processed

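RNA was taken from GFP+ AT2 cells of 2 Ctrl and 2 A5-CKO libraries on day 14 after bleomycin. Per the submitters' processing notes and the methods, the authors trimmed reads with Trim Galore 0.6.10, aligned them to mm10 with HISAT2 2.2.1 and counted them with featureCounts 2.0.3. The methods describe uniquely mapped reads without duplicates under another assay, which was taken to apply here. The deposited values are whole read counts per gene without normalization. Strand setting and read sharing between genes are not given in the sources used here.

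Counts were fitted here on the whole table with edgeR 4.0.16 in R 4.3.3 (TMM factors, filterByExpr, glmQLFit, glmQLFTest, Benjamini-Hochberg over 16661 genes). A common dispersion of 0.173 was estimated (biological coefficient of variation 41.6%), and each standard error is |log2 fold change| over the root of the F statistic. Other settings tried were scaling by RLE, upper quartile or total count, DESeq2 1.42.0, limma voom 3.58.1, a robust fit, 2 other filters, a replicate block, splines on GC content and length (4 degrees of freedom each, 15237 genes) and each library left out. The fits were tested on simulated data.

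The genes and lists were chosen with earlier results of these data known. By rule, values in every library are given, in each role group, for the gene with the highest mean CPM, the largest fold change and the smallest p. Other genes were named as partners of these or with their values already known. Positions are from RefSeq on GRCm38.p6, and transcript lengths, exons and 75-base windows from GENCODE M21. Levels between genes were compared per kilobase of the longest transcript, except in this rule, which took the highest mean CPM of each role group. One gene of the wider pathway list is not reported here.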

Additional observations from a re-analysis of the deposited data

How the results depend on the processing

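No gene of the list was called at an adjusted p under 0.05 under any of the 15 other settings. At an unadjusted p under 0.05, the number higher was 2 with RLE or upper-quartile factors, limma voom, the robust fit or at least 10 counts in every library, 3 in both DESeq2 fits, 4 with total counts only, and from 0 to 7 when each library was left out. The number lower was 2 in both DESeq2 fits, 1 in the robust fit and with GC and length splines, and from 0 to 9 when each library was left out. Over these settings the shares of all genes were 2.15% to 10.2% higher and 1.03% to 5.61% lower. For the list as a whole, the median stayed between -0.29 and 0.04 on the log2 scale in the settings with all 4 libraries and ranged from -0.53 to 0.31 when each library was left out. That of the other pathway genes was 0.31 with total counts only, where the median of all genes was 0.30. With GC and length splines the median of the list was -0.14, beside -0.09 for all genes. In that setting the log2 fold changes of Nlrc5, Ifih1, Ifit2, Parp14 and Gbp7 were 0.805, 0.35, 1.32, 0.26 and 0.69, each nearer 0 than in the main fit. That of B2m was -0.68, farther from 0. With upper-quartile factors 11 listed genes were separated upward and 5 downward, beside 24.3% and 18.8% of all genes, and with total counts only 14 and 0, beside 34.8% and 10.1%. Alkbh5 was called by DESeq2, both on the genes kept by edgeR (-2.01) and with its own filtering (-2.02).

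Of 284 values of named genes under alternatives, 273 kept their direction. With total counts only, Ifnar2 (0.0012), Irf1 (0.0033) and Ifit3 (0.17) turned above 0. Ifit3 was also above 0 in limma voom (0.26) and with GC and length splines (0.0269). When each library was left out, values that turned ranged from -0.87 to 1.40 (Ifit3), -1.61 to 0.0825 (Oas1a), -1.45 to 1.24 (Isg15), -1.40 to 0.21 (Bst2) and -0.97 to 0.69 (Gbp2), and without Ctrl 1 each of these was above 0. Apart from leaving out a library, the cause was not tested. Fits with 1 library in a group assume that it varies like the other group.

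With the replicate block, the median of the list was -0.13, no gene was called and Ifit3 was 0.25. The numbers share no stated litter or day, and deviations of same-numbered libraries correlated at -0.36 over all genes, so they were treated as names only. Genes with few counts, such as Mx1, Mx2, Psmb8 and Tap2, are limited by depth. Leaving out the chromosome 17 stretch was chosen after seeing the data.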
